A study of Mus musculus with 9 samples.

Results

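A group of 7705 wild-type H3K4me3 sites was described here, out of 18427 in all, or 41.8%. H3K4me3 is trimethylation of histone H3 at lysine 4, and H3K36me3 the same modification at lysine 36. The sites were selected on presence and absence in deposited peak lists and on interval width. A site was included when its wild-type H3K4me3 interval was narrower than 1500 bp, overlapped no wild-type interval carrying both marks (a double-marked interval), and overlapped no H3K4me3 interval of either Prdm9 mutant. They are called the lost sites below, where lost means that no interval of a mutant list overlapped the site by 1 bp or more. These criteria are descriptions of the lists and are not results about the sites.

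The study used chromatin immunoprecipitation with sequencing (ChIP-seq) on spermatocytes taken 14 days after birth from 3 genotypes of mice. Wild type was C57BL/6J (PRDM9-WT). EP mice were homozygous for Prdm9 with glutamate 360 replaced by proline (PRDM9-EP/EP, strain C57BL/6J-Prdm9<em2Kpgn>/Kpgn), and EK mice for the replacement of the same residue by lysine (PRDM9-EK/EK, strain C57BL/6J-Prdm9<em3Kpgn>/Kpgn). The labels call both alleles severe catalytic hypomorphs and name no further treatment. Each genotype had 2 H3K4me3 libraries and 1 H3K36me3 library, and the 6 lists hold 1 set of intervals per genotype and kind, in mm10. Re-analysed data, by their titles, made up 6 of 9 libraries: every wild-type library, the EP pair for H3K4me3, and the EK library numbered 1 for H3K4me3. Origin was thus the same for the wild-type and EP H3K4me3 libraries and mixed for EK. For H3K36me3, origin and genotype cannot be told apart. Chromatin was cut with micrococcal nuclease, which leaves nucleosome-sized fragments. The lists give positions only. Read depth and replicate error are therefore unknown, intervals around shares cover the sampling of sites only, and each test compares lists of sites, not mice. The labelled cell type could not be checked against marker genes, because the lists were restricted to a fixed set of PRDM9-dependent sites.

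PRDM9 is a meiotic protein with a DNA-binding array of zinc fingers and a PR/SET methyltransferase domain. It binds its recognition sequence in early meiotic prophase and places H3K4me3 and H3K36me3 on the flanking nucleosomes, and some of the marked sites then receive the double-strand breaks that start recombination. In mice with functional PRDM9 these hotspots lie mostly away from gene promoters, whereas in its absence breaks form at promoters and other sites that carry H3K4me3 independently of it. H3K36me3 also has a second source, the methyltransferase that travels with elongating RNA polymerase II through transcribed gene bodies.

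Few lost sites, like few wild-type sites of any kind, touched an annotated gene start, and those that did are shown first because they are the lost sites whose DNA sequence could be read here. Promoter windows of RefSeq (GRCm38.p6, 300 bases, from 250 before to 50 after a gene start) were overlapped by 59 of 7401 lost sites on the chromosomes that have windows (0.797%, 95% Wilson interval 0.619 to 1.03%), and 24 of these overlapped the window of a protein-coding gene (0.324%, 0.218 to 0.482%). Over all wild-type sites these shares were 1.02% and 0.410%. The 4 windows below lay wholly inside a lost site and had their gene start closest to its centre. Rgs3 encodes a regulator of G-protein signalling, Gp2 a glycoprotein of pancreatic zymogen granules and intestinal M cells, and Vmn1r193 a vomeronasal receptor of class V1R. The Rgs3 window at chr4:62559597-62559896 (plus strand) lay in the site chr4:62559208-62560297, with the start 94 bp from the site's centre. The Gp2 window at chr7:119459223-119459522 (minus strand) lay in chr7:119458981-119459779, and the Ftdc1 window at chr16:58616929-58617228 (minus strand) in chr16:58616667-58617552. The Vmn1r193 window at chr13:22219771-22220070 (minus strand) lay in chr13:22219528-22220396. Each sequence reads 5′ to 3′ on the gene's strand, and capitals mark CG dinucleotides, of which the windows of Rgs3, Gp2 and Ftdc1 held 4 each and that of Vmn1r193 held 0.
Rgs3: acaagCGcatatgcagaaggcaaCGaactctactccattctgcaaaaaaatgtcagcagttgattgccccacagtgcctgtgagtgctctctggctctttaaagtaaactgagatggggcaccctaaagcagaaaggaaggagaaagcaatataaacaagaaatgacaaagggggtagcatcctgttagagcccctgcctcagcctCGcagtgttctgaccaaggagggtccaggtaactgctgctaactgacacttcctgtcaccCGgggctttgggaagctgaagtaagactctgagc
Gp2: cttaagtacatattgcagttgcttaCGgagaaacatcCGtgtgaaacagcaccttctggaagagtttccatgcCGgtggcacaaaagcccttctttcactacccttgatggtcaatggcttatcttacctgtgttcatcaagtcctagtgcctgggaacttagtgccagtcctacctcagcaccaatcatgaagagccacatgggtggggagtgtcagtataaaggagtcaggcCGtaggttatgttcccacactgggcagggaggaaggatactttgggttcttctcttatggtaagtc
Ftdc1: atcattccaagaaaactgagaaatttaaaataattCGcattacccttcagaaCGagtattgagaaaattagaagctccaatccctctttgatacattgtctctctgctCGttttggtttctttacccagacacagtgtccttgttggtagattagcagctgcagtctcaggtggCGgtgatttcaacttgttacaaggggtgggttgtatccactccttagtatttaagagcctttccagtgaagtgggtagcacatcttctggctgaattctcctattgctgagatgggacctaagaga
Vmn1r193: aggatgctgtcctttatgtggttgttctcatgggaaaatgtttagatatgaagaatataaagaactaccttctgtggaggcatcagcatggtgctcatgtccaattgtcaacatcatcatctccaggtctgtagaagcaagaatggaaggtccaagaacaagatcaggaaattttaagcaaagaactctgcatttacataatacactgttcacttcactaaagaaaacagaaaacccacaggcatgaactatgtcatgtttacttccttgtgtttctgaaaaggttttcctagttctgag

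The 24 coding windows at lost sites were poor in CG. Their median was 2 CG per window, against 13 over all 21262 coding windows of the table, and 21 of the 24 held at most 5 CG, as did 32.3% of all coding windows. The median G+C content was 49.5% at lost sites and 56.3% over all windows. Coding windows at all wild-type sites had medians of 4 CG and 48.7% G+C. The median G+C content was 50.7% at kept sites. Narrower double-marked lost sites had medians of 3 CG and 43% G+C, and broad lost sites 3.5 CG and 48.7%. The letters TATAAA, or TTTATA on the other strand, occurred in 7 of the 24 windows (29.2%), in 15 of 73 at all wild-type sites (20.5%), in 2 of 19 at kept sites (10.5%), in 1 of 5 at narrower double-marked lost sites, in 2 of 2 at broad lost sites and in 12.6% of all coding windows. The windows of the vomeronasal receptor genes Vmn1r193 and Vmn1r204 are both among the 7. Their letters lie in a stretch of sequence that both windows share, so the 24 windows are not all independent sequences. Coding windows at the narrower H3K4me3-only sites kept in both mutants were also poor in CG, with a median of 3 over 19 windows. All lists were confined to the authors' fixed PRDM9-dependent sites, so the low CG content is a description of promoters in that set and was not tested against the lost sites' fate.

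Among the other windows wholly inside a lost site, by position, were those of Olfr32 (chr2:90142244-90142543) and Olfr1368 (chr13:21143006-21143305), which encode olfactory receptors and held 0 CG. Tgm4 (chr9:123034491-123034790) encodes the prostate transglutaminase, Cdh23 (chr10:60696441-60696740) a cadherin of the hair-cell tip link, Nlrp1a (chr11:71144655-71144954) an inflammasome sensor, and Vrk1 (chr12:106025557-106025856) a serine/threonine kinase. The Tgm4 window held 4 CG, the Cdh23 and Vrk1 windows 5 each, and the Nlrp1a window 2. Gm11545 (chr11:94761133-94761432) held 1 CG. The window of another vomeronasal receptor gene, Vmn1r204 (chr13:22555951-22556250), also lay wholly inside a lost site and held 2 CG.

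Of 1005 microRNA hairpins in the RefSeq table, 1 overlapped a lost site and 10 overlapped any wild-type site. This was Mir719 (gene 751526) on the minus strand of chr14:60228806-60228915, inside the lost site chr14:60227978-60229407 and inside the span of Nupl1, a nuclear pore gene. Its mature sequence is shown with the seed, bases 2 to 8, in capitals, because it is the single annotated microRNA under a lost site.
mmu-miR-719: aUCUCGGCuacagaaaaauguu

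The loss that defines these sites is given here as a description with no test. Of the 10161 wild-type H3K4me3 sites narrower than 1500 bp and outside the double-marked list, 7705 had no interval in either mutant (75.8%), 1767 had an interval in both (17.4%), 549 in EK alone (5.40%) and 140 in EP alone (1.38%). Over the whole wild-type list, 80.1% of sites had no EP interval, 82.3% no EK interval and 76.7% neither, 62.6% lay outside the double-marked list and 73.5% were narrower than 1500 bp. The share lost among narrower H3K4me3-only sites was thus close to the share over all sites.

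The lost sites were 136 to 1499 bp wide, with a median of 952 bp and an interquartile range of 780 to 1140 bp, and covered 7427 kb in total. The narrower H3K4me3-only sites kept in both mutants had a median of 670 bp, and the narrower double-marked sites lost in both mutants 1242 bp. Below 500 bp, 153 of 344 narrower H3K4me3-only sites were lost (44.5%, 39.3 to 49.8%). From 500 to below 750 bp the number was 1428 of 2718 (52.5%, 50.7 to 54.4%), and from 750 to below 1000 bp 2796 of 3471 (80.5%, 79.2 to 81.8%). It was 2191 of 2404 (91.1%, 89.9 to 92.2%) from 1000 to below 1250 bp and 1137 of 1224 (92.9%, 91.3 to 94.2%) from 1250 to below 1500 bp. In bins of 100 bp the share did not rise steadily below 600 bp. It was 2 of 13 sites from 100 to below 200 bp, 13 of 26 from 200 to below 300 bp, 42.6% from 300 to below 400 bp, 45.7% from 400 to below 500 bp and 37.6% of 1009 sites from 500 to below 600 bp. Above 600 bp the share was lowest at 56.0% (600 to below 700 bp) and highest at 93.85% (1300 to below 1400 bp). It was 93.0% from 1400 to below 1500 bp.

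**Figure D1:**
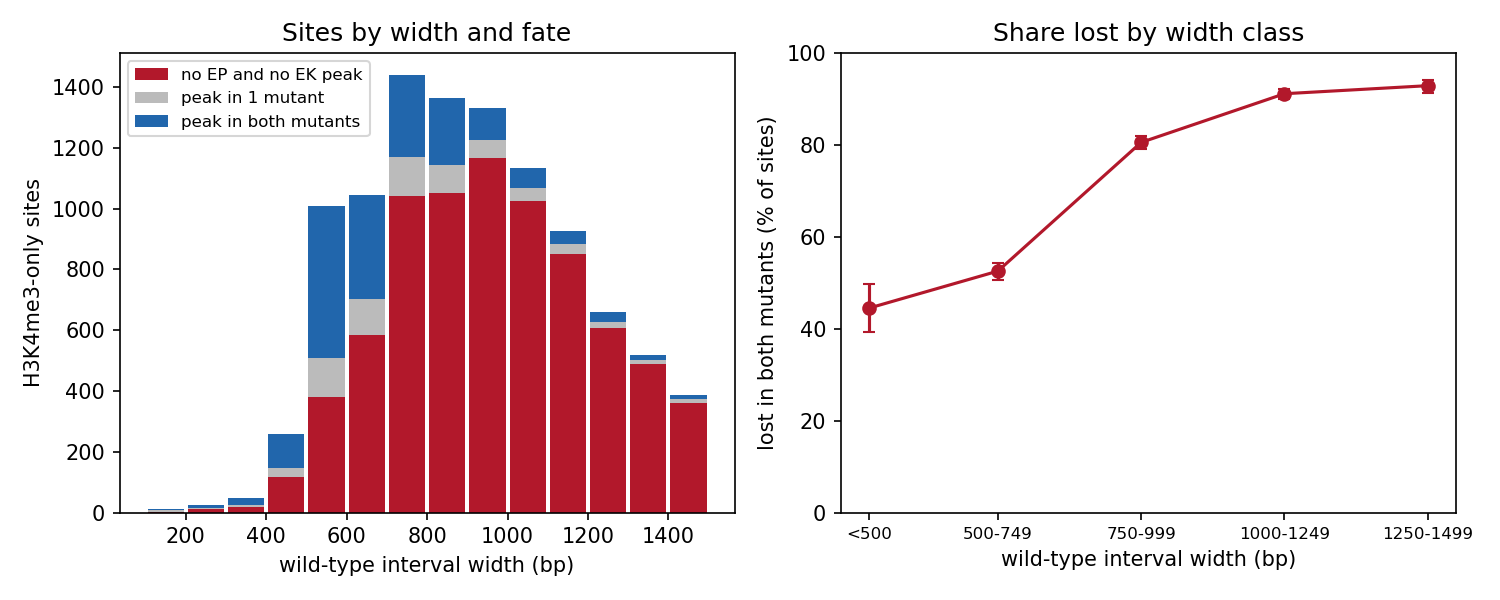
Left, narrower H3K4me3-only wild-type sites by interval width in 100 bp bins, stacked by fate (red, no interval in either mutant; grey, in 1 mutant; blue, in both). Right, the share lost in both mutants by width class with 95% Wilson intervals; it is 44.5% below 500 bp and 92.9% from 1250 to below 1500 bp.

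Around the limits of the definition, the widest lost sites measured 1499 bp and the narrowest excluded H3K4me3-only lost sites 1500 bp, with 187 sites in the 50 bp below the limit and 122 in the 50 bp above it. The nearest EP interval lay at a median distance of 225 kb from a lost site and the nearest EK interval at 261 kb. Only 25 lost sites had an EP interval within 500 bp and 17 an EK interval. The closest was at chr17:29884729-29885555, 17 bp from an EK and 277 bp from an EP interval. On the other side of the overlap rule, 7 of the 2456 narrower H3K4me3-only sites that were not lost owed this to an overlap under 100 bp, the smallest being 3 bp at chr4:98932912-98933447. The nearest double-marked wild-type interval lay 128 kb away at the median, and within 500 bp at 46 lost sites. Few sites therefore lay close to the overlap limit.

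Genomic position was not used in choosing the lost sites, and 6 position features were compared with 3 classes of wild-type sites. The classes were the 1767 narrower H3K4me3-only sites kept in both mutants, the 2996 narrower double-marked sites lost in both, and the 1018 broad H3K4me3-only sites (at least 1500 bp) lost in both. Two-sided Fisher's exact tests were adjusted by Benjamini-Hochberg over all 18 comparisons, of which 8 passed an adjusted p of 0.05.

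Lost sites lay inside protein-coding genes less often than kept sites and far less often than broad lost sites. The centre of 3882 of 7705 lost sites (50.4%, 49.3 to 51.5%) fell inside the span of a protein-coding gene. Among kept sites the share was 58.9% (56.6 to 61.2%), so the lost sites stood at -8.53 points relative to them (adjusted p = 5.68e-10 by Fisher's exact test). Among broad lost sites it was 81.9% (79.4 to 84.2%), or -31.5 points for the lost sites (adjusted p = 1.14e-85 by Fisher's exact test). With the width limit at 1000 bp this difference was -10.0 points, from shares of 49.1% and 59.1%. Among narrower double-marked lost sites it was 53.4% (51.6 to 55.2%), or -3.02 points (adjusted p = 0.0122 by Fisher's exact test). This last call held in 8 of 14 alternatives. It was -17.7 points with a width limit of 1000 bp (adjusted p = 5.90e-15 by Fisher's exact test) and -5.55 without sites that had a close neighbour (adjusted p = 1.14e-05 by Fisher's exact test). It did not pass within 100 bp width strata (-2.74 points by the Mantel-Haenszel test). It was -2.24 points on the autosomes (adjusted p = 0.0907 by Fisher's exact test) and turned to 3.70 with a width limit of 2000 bp. Its values by width class follow. Protein-coding spans covered 37.9% of the chromosome lengths used, assembly gaps included, and 53.3% of all wild-type sites lay inside one.

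**Figure D2:**
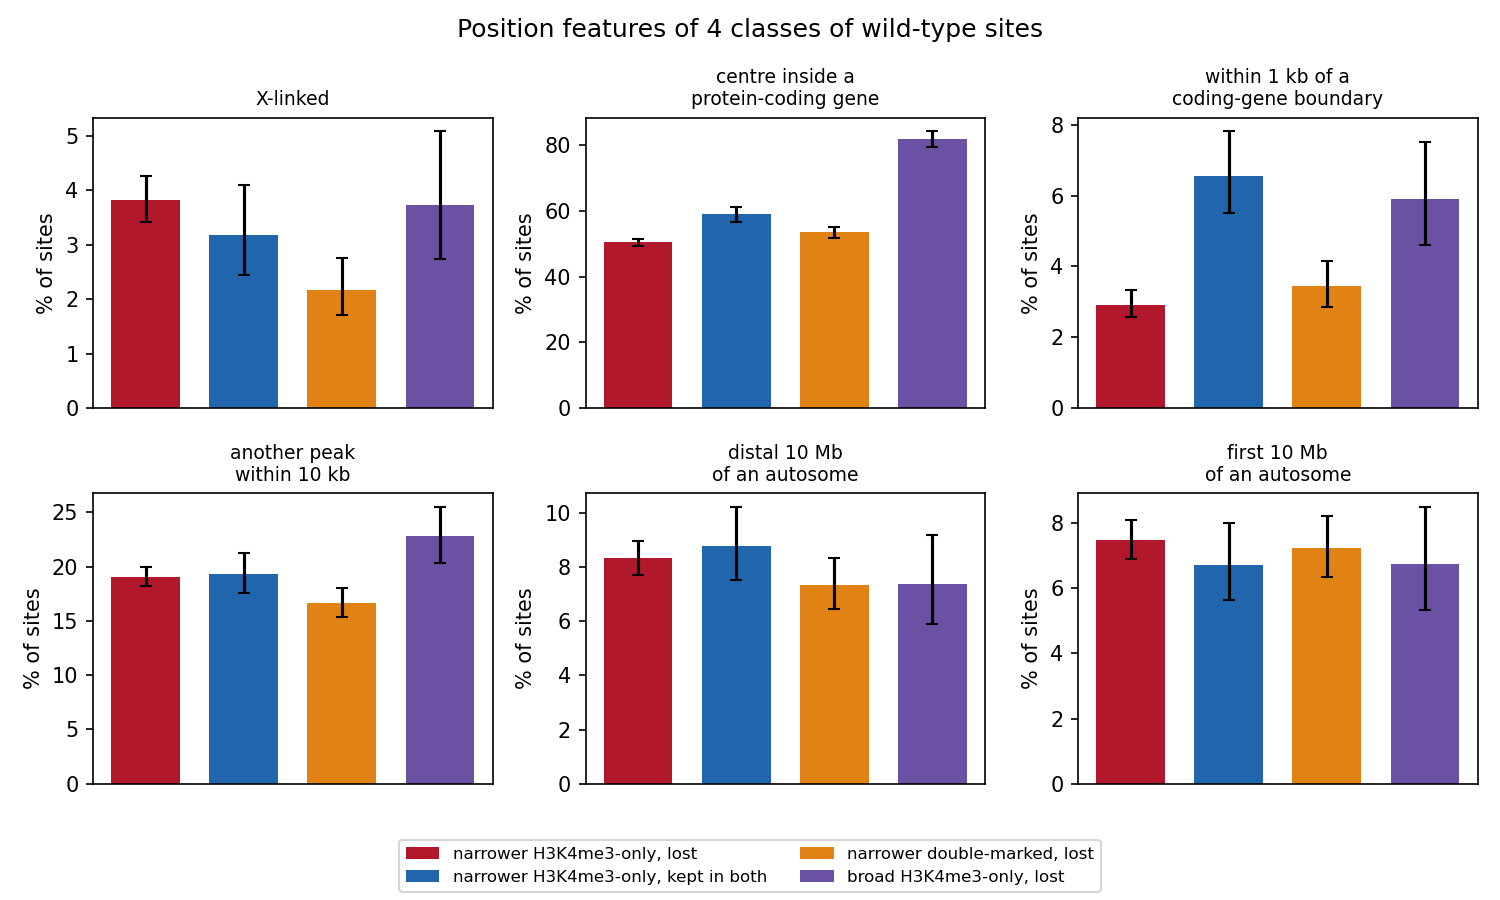
Share of sites with each of 6 position features in 4 classes of wild-type sites (bars, percent of sites; error bars, 95% Wilson intervals; the vertical scale differs between panels). Lost sites lie inside protein-coding genes in 50.4% of cases and broad lost sites in 81.9%; the 2 panels on chromosome ends show overlapping intervals for all classes.

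The width classes showed how the gene share was composed. Between 500 and 1250 bp the share of lost sites inside a protein-coding gene was flat, at 49.2% (500 to below 750 bp), 49.4% (750 to below 1000 bp) and 48.9% (1000 to below 1250 bp). It was 43.1% (35.6 to 51.1%) in the 153 sites below 500 bp and 58.3% (55.4 to 61.1%) from 1250 to below 1500 bp. Beyond the width limit, in the broad H3K4me3-only lost sites, the share continued upward to 72.4% (1500 to below 1750 bp), 88.3% (1750 to below 2000 bp) and 92.8% (2000 bp or more). Double-marked sites lost in both mutants ran the other way, from 70.6% at 500 to below 750 bp (7 of 18 sites below that width) and 66.6% at 750 to below 1000 bp to 42.4% at 1500 to below 1750 bp.

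The difference between lost sites and narrower double-marked lost sites therefore changed sign with width: it was negative in the middle width classes and positive in the widest. Over a family of 10 tests by width class, chosen after the pooled values were seen, it was -21.4 percentage points at 500 to below 750 bp (adjusted p = 1.99e-06 by Fisher's exact test), -17.2 at 750 to below 1000 bp (adjusted p = 4.73e-10 by Fisher's exact test) and 9.85 at 1250 to below 1500 bp (adjusted p = 2.01e-06 by Fisher's exact test). It did not pass at 1000 to below 1250 bp (-3.91 percentage points; adjusted p = 0.0593 by Fisher's exact test) or among the 153 lost and 18 double-marked sites below 500 bp (4.25; adjusted p = 0.805 by Fisher's exact test). Against kept sites the difference was negative in all 5 width classes, from -7.24 to -19.3 percentage points, and passed in the 4 classes below 1250 bp. At 1250 to below 1500 bp, with 48 kept sites, it was -8.36 (adjusted p = 0.329 by Fisher's exact test).

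**Figure D3:**
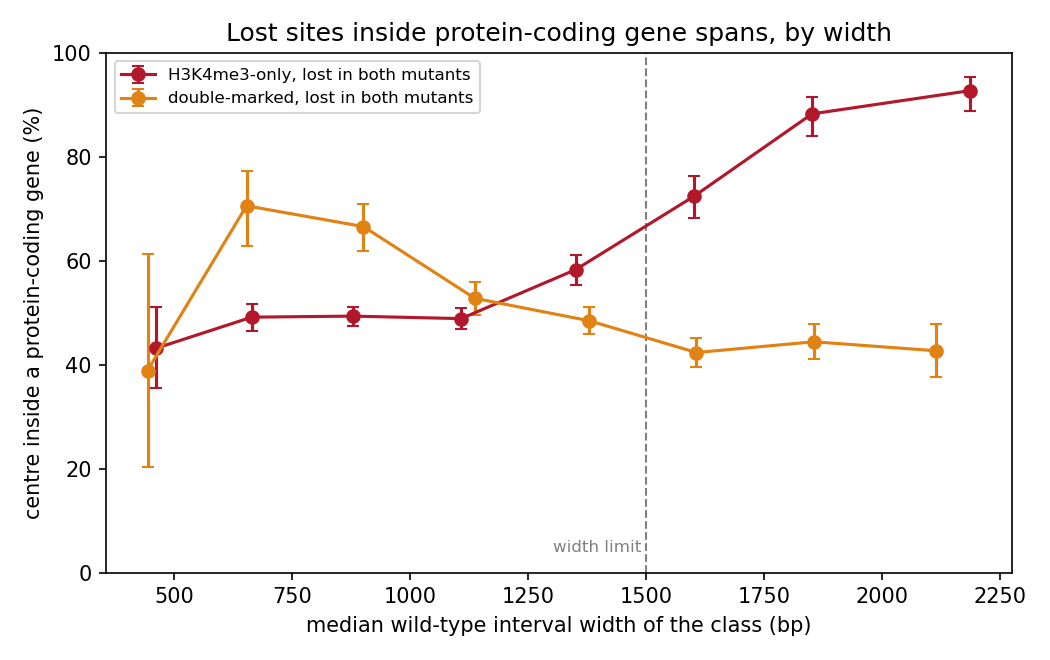
Share of wild-type sites lost in both mutants whose centre lies inside a protein-coding gene span, by width class (points at the class's median width, 95% Wilson intervals), for H3K4me3-only sites (red) and double-marked sites (orange). The lost sites described in the text are the red points left of the dashed line at 1500 bp; the red share runs from 43.1% to 92.8% and the orange share is 42.7% in the widest class.

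The share of H3K4me3-only sites among all wild-type sites lost in both mutants is given as a description with no test, since it rests on the values that chose the sites. Of narrower sites lost in both mutants, 3882 of 5482 inside a protein-coding gene were H3K4me3-only (70.8%, 69.6 to 72.0%), and 3823 of 5219 outside (73.3%, 72.0 to 74.4%). Of broad sites lost in both, 834 of 1875 inside were H3K4me3-only (44.5%, 42.2 to 46.7%), and 184 of 1558 outside (11.8%, 10.3 to 13.5%). How the authors called H3K36me3 inside genes is not given in the sources used here, and whether that call differs between gene bodies and intergenic DNA was not tested.

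Lost sites also lay near a protein-coding gene boundary less often than kept and broad lost sites. This measure pools gene starts and gene ends. A boundary of a protein-coding gene lay within 1 kb of 225 lost sites (2.92%, 2.57 to 3.32%), against 6.56% of kept sites (5.50 to 7.82%; difference -3.64 percentage points, adjusted p = 6.93e-11 by Fisher's exact test) and 5.89% of broad lost sites (4.61 to 7.51%; difference -2.97, adjusted p = 2.24e-05 by Fisher's exact test). The narrower double-marked lost sites, at 3.44% (2.84 to 4.15%), did not differ from them past the threshold (adjusted p = 0.305 by Fisher's exact test). Over all wild-type sites the share was 3.86% (3.59 to 4.15%). With a limit of 5 kb the shares of lost and kept sites were 12.8% and 28.3%. With genes of any biotype, lost sites stood at 7.35% and narrower double-marked lost sites at 8.68%. That difference of -1.33 percentage points passed the threshold (adjusted p = 0.0430 by Fisher's exact test). The nearest annotated start of a protein-coding gene was 65.5 kb from a lost site at the median (interquartile range 21.4 to 221 kb) and 33.9 kb from a kept site (7.06 to 111 kb). The median was 79.5 kb for narrower double-marked lost sites and 32.8 kb for broad lost sites. A start lay within 1 kb of 57 of 7401 lost sites (0.770%) and of 70 of 1714 kept sites (4.08%). It did so for 0.506% of broad lost and 0.451% of narrower double-marked lost sites. At starts alone, the share of lost sites was thus below that of kept sites but not below that of broad lost sites. These shares were not tested separately, nor were gene ends alone. Promoter windows of any gene type were overlapped by 2.16% of kept sites, against the 0.797% of lost sites given above.

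Lost sites were spread over 2782 of 21883 protein-coding genes (12.7%), and 2057 of these held 1 lost site, while 24.0% held a wild-type site of any kind. The median span of genes with a lost site was 91.3 kb, against 71.0 kb for genes with any wild-type site, 86.7 kb with a kept site and 147 kb with a narrower double-marked lost site. Ctnna2, which encodes the neuronal alpha-catenin that links cadherins to actin, held the most, with 10 lost sites among 14 wild-type sites over 1098 kb of chromosome 6. Lrmda held 9 of 16 wild-type sites. Lsamp, a neuronal cell adhesion molecule, held 8 of 14, Zbtb20, a zinc-finger repressor, 8 of 14, Auts2, a neurodevelopmental gene, 8 of 16, and Cdh13, a cadherin anchored to the membrane by a lipid, 8 of 11. Lrp1b, a receptor of the LDL receptor family, held 7 of 14, Ptprd, a receptor tyrosine phosphatase, 7 of 12, and Chchd3, a subunit of the mitochondrial cristae-organising complex, 7 of 8. Anks1b, a protein of the postsynaptic density, held 6 of 11 and was 1 of 16 genes with 6. Of these 10 genes, 8 span over 1 Mb, and Zbtb20 and Chchd3 are shorter.

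Per unit of length, other genes led among those with at least 5 lost sites. Hibadh, a mitochondrial dehydrogenase of valine breakdown, held 5 lost sites in 94.1 kb of chromosome 6 (53.2 per Mb), and all 5 of its wild-type sites were lost sites. Enpp6, a choline-specific phosphodiesterase, held 6 of 10 wild-type sites in 158 kb (38.1 per Mb). Chchd3 followed with 26.1 per Mb, Pbx3, a homeodomain transcription factor, with 24.9 per Mb (5 of 8 sites) and Dtnb, the beta-dystrobrevin gene, with 23.5 per Mb (5 of 6 sites). The mean over all protein-coding spans was 3.78 lost sites per Mb. The 59 protein-coding genes of at least 1 Mb held 213 lost sites at 2.68 per Mb, and 54 of them held at least 1. Wild-type sites of any kind were also sparser there, at 6.20 per Mb against 9.51 per Mb over all protein-coding spans, and lost sites made up 43.3% of them against 39.7%.

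Genes of meiotic recombination and synapsis were looked up as a list of 46, of which 45 matched the annotation. Of the 45, 8 held a lost site (17.8%), compared with 12.7% of all protein-coding genes, and each of the 8 held 1. The listed genes were longer, with a median span of 37.8 kb against 17.2 kb, and their density of 3.12 lost sites per Mb lay below the 3.78 per Mb of all protein-coding genes. A wild-type site of any kind was present in 24.4% of the list and 24.0% of all protein-coding genes. The site in Ankrd31, a factor of double-strand break formation, was chr13:96823935-96825187. In Trip13, an ATPase that removes HORMA-domain proteins from chromosome axes, it was chr13:73935198-73936350. Hsf2bp, a partner of BRCA2 in meiosis, held chr17:31996610-31997601. In Msh4, which stabilises crossover intermediates, it was chr3:153900477-153901126, and in Mlh3, part of the crossover resolvase, chr12:85243083-85244195. Shoc1, a further crossover factor, held chr4:59084480-59085447. Stag3, a meiotic cohesin subunit, held chr5:138287188-138288023, and Tex11, an X-linked crossover gene, chrX:100964118-100964933. In 7 of the 8 genes the lost site was the only wild-type site, whereas Tex11 held 4. Another 3 genes of the list held 1 wild-type site each and no lost site: Hormad1 and Iho1 held a narrower H3K4me3-only site kept in both mutants, and Sycp2 a site of another kind. Whether these intervals bear on the genes' expression was not measured.

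Across chromosomes the lost sites kept a narrow range. They made up 38.6% of the wild-type sites on chromosome 4 (35.7 to 41.6%), the lowest share, and 47.3% on chromosomes 18 (43.5 to 51.1%) and X (43.4 to 51.2%), with 5 of 8 sites on the Y. Density ran from 2.54 lost sites per Mb on chromosome 4 to 3.44 per Mb on chromosome 11 among the autosomes and was 1.72 per Mb on the X, where all wild-type sites were also sparse (3.64 per Mb). The X held 294 lost sites (3.82%, 3.41 to 4.27%), and 3.38% of all wild-type sites (3.12 to 3.65%). The lost sites' share exceeded the 2.17% (1.71 to 2.76%) of narrower double-marked lost sites by 1.65 percentage points (adjusted p = 4.24e-05 by Fisher's exact test) and did not differ past the threshold from kept sites (3.17%; adjusted p = 0.341 by Fisher's exact test) or broad lost sites (3.73%; adjusted p = 1 by Fisher's exact test). The X-linked call against double-marked sites held in 6 of 7 alternatives and was 0.687 points with a width limit of 1000 bp (adjusted p = 0.845 by Fisher's exact test). On the X, 38.1% of lost sites lay inside a protein-coding gene, and among the autosomes the share ran from 34.3% on chromosome 3 to 58.7% on chromosome 11.

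Along the autosomes the lost sites made up 38.7 to 44.0% of the wild-type sites in each of 10 equal stretches between a chromosome's first and last site. The distal 10 Mb held 8.32% of the autosomal lost sites (7.71 to 8.97%), and the first 10 Mb after the first wild-type site 7.48% (6.90 to 8.10%). Neither share differed past the threshold from any of the 3 classes (adjusted p between 0.200 and 0.762 by Fisher's exact tests). The differences ran from -0.449 to 0.982 percentage points. With a width limit of 2000 bp the distal difference from narrower double-marked lost sites was 1.504 points, past the threshold (adjusted p = 0.00411 by Fisher's exact test).

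**Figure D4:**
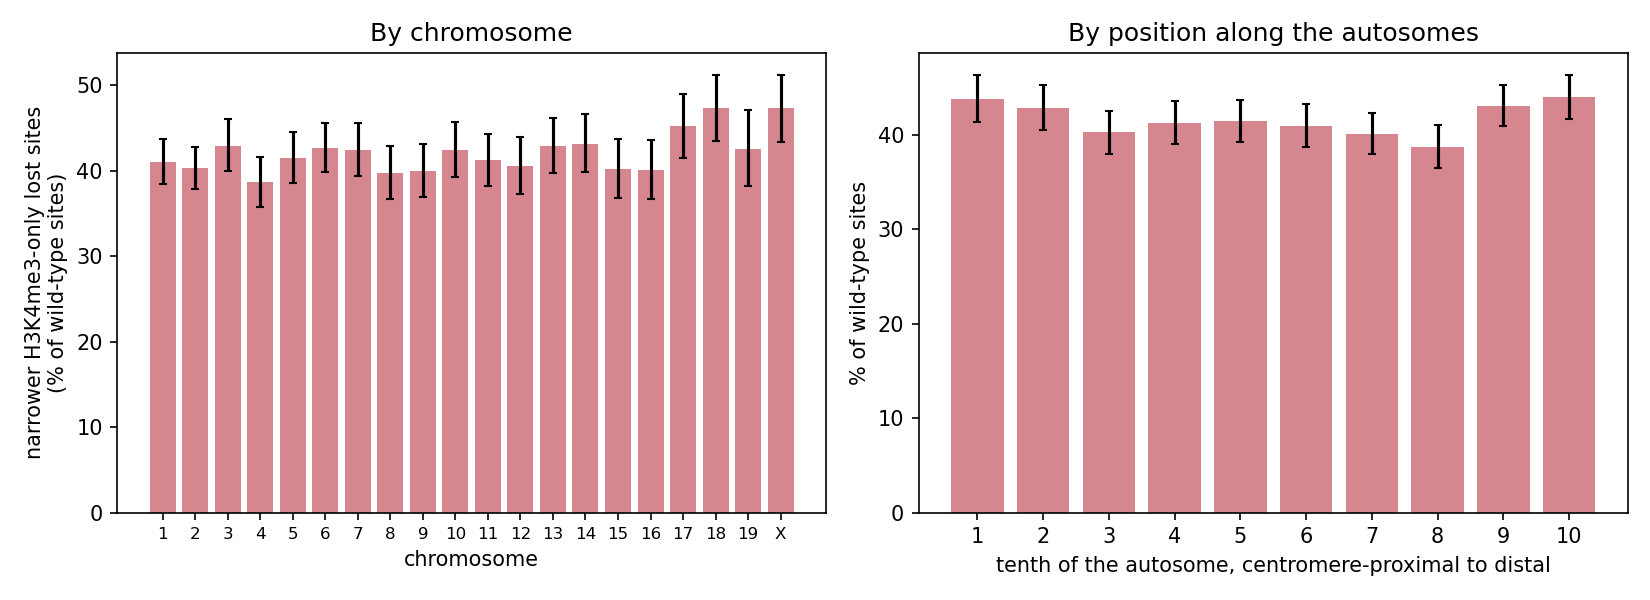
Lost sites as a percentage of all wild-type H3K4me3 sites, by chromosome (left; the Y with 8 sites is not drawn) and by 10 equal stretches of the autosome between its first and last site (right), with 95% Wilson intervals. Shares run from 38.6% on chromosome 4 to 47.3% on chromosomes 18 and X, and from 38.7 to 44.0% over the stretches.

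Spacing was similar to that of most other sites. The nearest other wild-type H3K4me3 interval lay 40.3 kb from a lost site at the median (interquartile range 14.8 to 88.3 kb), against 39.5 kb over all sites, and within 10 kb at 1467 lost sites (19.0%, 18.2 to 19.9%). Broad lost sites had such a neighbour more often, at 22.8% (20.3 to 25.5%; difference -3.75 percentage points, adjusted p = 0.0122 by Fisher's exact test), and narrower double-marked lost sites less often, at 16.7% (difference 2.38, adjusted p = 0.0122 by Fisher's exact test). Against broad sites the call held in 5 of 7 alternatives, with -11.4 points for neighbours within 50 kb (adjusted p = 2.08e-11 by Fisher's exact test), and against double-marked sites in 4 of 8, with 3.98 points at a width limit of 2000 bp (adjusted p = 2.26e-08 by Fisher's exact test). Within 100 bp width strata the latter did not pass (1.73 points by the Mantel-Haenszel test). With a width limit of 1000 bp the difference was -0.0697 from the broad class and -0.763 from the double-marked class (adjusted p = 0.935 and 0.882 by Fisher's exact test). Kept sites, at 19.3%, did not differ past the threshold (difference -0.259; adjusted p = 0.862 by Fisher's exact test). The nearest neighbour of a lost site was itself a lost site in 43.6% of cases and lost in both mutants in 77.6%, close to the 41.6% and 76.4% over all sites. For kept sites these were 37.4% and 68.2%, values from the lists that defined the classes and given with no test.

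**Figure D5:**
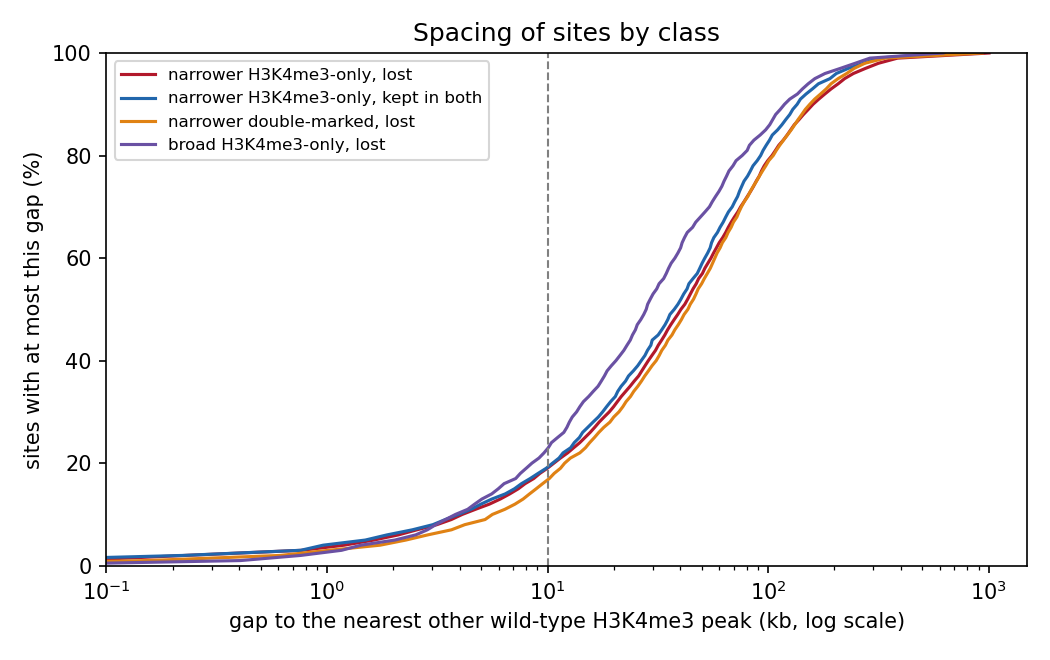
Cumulative share of sites (percent) by the gap to the nearest other wild-type H3K4me3 interval (kb, log scale; gaps below 0.1 kb lie off the left edge) in 4 classes. The median gap is 40.3 kb for lost sites and 28.0 kb for broad lost sites; the dashed line marks 10 kb.

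Of the lost sites, 760 (9.86%) fell into 366 runs of lost sites at most 10 kb apart. Among the runs, 340 were pairs, 24 held 3 sites and 2 held 4. Runs were not counted for the other classes. Over all wild-type sites, 18.5% had a neighbour of any kind within 10 kb. The runs of 4 lay in AW554918 on chromosome 18 (20.9 kb) and in Chchd3 at chr6:32967429-32980389 (13.0 kb). Among the closest pairs, 1 pair at chr17:31175926-31176701 and chr17:31176013-31176743 overlapped within the wild-type list itself. Another 3 pairs were separated by 1 bp, for example chr2:106599615-106600573 and chr2:106600575-106601126, and the fifth by 6 bp at chr6:120498415-120498687 and chr6:120498694-120499166. None of the 5 closest pairs lay inside an annotated gene. Such abutting intervals count as separate sites in the list, and these 10 sites were 246 to 1354 bp wide.

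The most isolated lost site, chr2:177244873-177245169, was 297 bp wide and 1004 kb from any other wild-type interval. The next were chr3:12171990-12173061 at 971 kb, chrX:120785993-120787019 in Pcdh11x at 928 kb, chr14:84490596-84491540 in Pcdh17 at 925 kb and chrX:62481584-62482367 at 903 kb. Pcdh11x and Pcdh17 encode protocadherins. The other 3 lay outside annotated genes. The neighbour was another lost site for the first pair of sites listed.

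At the ends of the width range, the widest lost sites were 1499 bp at chr3:82650764-82652262 outside genes, chr3:105749119-105750617 in Rap1a, a small GTPase, chr5:132305546-132307044 in Auts2, and chrX:109484563-109486061 in Gm34521. The fifth, chr4:53105498-53106995 in Abca1, the cholesterol efflux transporter, was 1498 bp. The narrowest were 136 bp at chr15:13783782-13783917, 157 bp at chr10:62480501-62480657 in Vps26a, a retromer subunit, and 225 bp at chr17:13521528-13521752 in the lncRNA 2700054A10Rik and the pseudogene Smok4a. They were followed by 240 bp at chr16:21063181-21063420 in Gm6557 and 244 bp at chr1:156523529-156523772. Of these 10 sites, the one in Gm6557 alone had a protein-coding gene boundary within 1 kb, and its site overlapped that gene's promoter window by 130 bp.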

How the data were processed

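ChIP-seq peak lists of 6 kinds from 9 libraries of mouse spermatocytes were used. Positions are in mm10, per the labels. The text file the authors deposited beside the lists says that they keep peaks found at PRDM9-dependent sites taken from an earlier series. The submitters' processing notes name Trimmomatic, BWA 0.7.9a and MACS 1.4. Detection thresholds, input controls and the rule for double-marking are not given in the sources used here. The deposited columns are interval start and end, with no score or count.

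Intervals were compared in Python 3.11.15 (pandas 2.3.3, SciPy 1.17.1, statsmodels 0.14.6), with overlap of at least 1 bp and positions counted from 1. The overlap and test code was tested on simulated data. Gene spans and promoter windows came from RefSeq tables of GRCm38.p6, the assembly that mm10 represents. Promoter windows were not used for chromosome 18 (304 lost sites). Exons, introns and UTRs were not analysed here. Gaps and boundaries were measured from interval edges, and gene membership from the centre.

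Sites, the gene list and the tests were chosen with earlier results of these data known. Named were the 5 widest, narrowest and most isolated sites, the 5 closest pairs, the 10 genes with most lost sites, the 5 densest with at least 5, meiotic genes with a site, and up to 10 promoters by overlap. Ftdc1 and Vmn1r204 were named outside this rule, after their values were seen: the promoters whose sequence is shown were chosen by the distance of the start from the site's centre.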

Additional observations from a re-analysis of the deposited data

How the results depend on the processing

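Differences here are lost sites minus the named class, in percentage points. Of 77 alternative values for the 8 called results, 63 kept their direction and their side of the threshold. The share near a gene boundary held in each alternative run against kept and broad lost sites, as did the share inside genes against broad lost sites, whose difference ran from -39.8 to -10.0.

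With a width limit of 1000 bp the lost sites numbered 4377; under the other limits on overlap, width and chromosome they numbered 7406 to 8474, and 6238 without sites that had a neighbour within 10 kb. At that limit the close-neighbour difference was 0.260 from kept, -0.763 from double-marked and -0.0697 from broad sites, the X-linked difference 0.687 from double-marked and -0.761 from broad sites, and the proximal-end difference -0.502 and -0.302 from the same classes. With a limit of 2000 bp the differences from double-marked sites were 3.70 inside genes, 1.504 at the distal end (past the threshold there) and -0.123 at the proximal end. Those from broad sites were -4.34 for a close neighbour and -0.861 at the proximal end.

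Within 100 bp width strata, the differences from double-marked sites were -2.74 inside genes, 0.0632 near a boundary and 1.73 for a close neighbour, none past the threshold, so that the gene and neighbour calls were lost, and the neighbour difference from kept sites was 2.01. On the autosomes the in-gene difference from double-marked sites was -2.24. Counting gaps up to 500 bp as overlap gave a neighbour difference of 0.923 from that class, and neighbours within 50 kb gave 1.76. With genes of any biotype the boundary difference from it was -1.33, past the threshold. End regions of 5 Mb gave 0.288 at the distal end against kept sites and -0.0967 at the proximal end against double-marked sites. Without sites that had a neighbour within 10 kb, the X-linked difference from broad sites was -0.143. By width class, added after seeing the data, the in-gene difference from double-marked sites was 4.25 below 500 bp, -3.91 at 1000 to below 1250 bp and 9.85 at 1250 to below 1500 bp, and that from kept sites -8.36 in the last class. The width classes hold fewer sites and describe how the in-gene difference changed with width. The cause of the shifts between settings was not tested.

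No paired analysis was possible because each list pools its libraries and carries no value per replicate, which also prevents leaving out a replicate. Depth is unknown, so a lost site is one with no listed interval, and H3K4me3 below the detection limit was not measured.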
